A study of Mus musculus with 8 samples.

Results

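The genes examined here are 38 genes of mitosis and cytokinesis, chosen by symbol from a list of proteins that build the spindle, attach chromosomes, time anaphase and divide the cell. All 38 were found among the 23420 gene symbols of the count tables, and all 38 passed the filter on low counts. RNA was sequenced from mouse uterine stromal cells of day 3 in 8 libraries: 4 carry the label Erbb3f/f and 4 the label Erbb3d/d. By mouse convention the f allele carries loxP sites and the d allele is the form left by Cre; the labels name no Cre line, no age and no event from which the day is counted. Nothing in the labels says that the libraries came from separate animals, so p-values measure the spread between these libraries, which may be technical. In bulk RNA, fewer dividing cells and less RNA per cell cannot be told apart.

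The genes of mitosis form a programme that is transcribed late in the cell cycle. Cyclins A and B bind the kinase CDK1 to start mitosis, kinetochores tie chromosomes to spindle microtubules, and the spindle checkpoint delays anaphase until all are attached. The anaphase-promoting complex then releases the sister chromatids, and a contractile ring divides the cell. The DREAM complex represses the programme in resting cells, and B-MYB and FOXM1 activate it, largely through CCAAT boxes and cell cycle homology regions in the promoters. In the mouse uterus, ovarian hormones move cell division from the epithelium to the stroma in the days before implantation.

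Between 8578575 and 12854367 reads fell in genes per library, and levels are given as CPM, reads scaled to the effective library size. The targeted gene did not follow the labels: Erbb3 stood at 9.64 ± 2.24 CPM (SD, n = 4) in Erbb3f/f against 13.9 ± 4.56 CPM (SD, n = 4) in Erbb3d/d. In replicates 1 to 4 it was at 7.40, 10.6, 8.25 and 12.3 CPM for Erbb3f/f and 7.37, 14.3, 17.7 and 16.2 CPM for Erbb3d/d. Reads counted over a gene do not show whether part of it was deleted, so each direction below rests on the labels. Markers of stroma were abundant throughout, with a mean log2 CPM of 9.51 to 10.12 over 14 genes. Markers of epithelium, smooth muscle, endothelium and immune cells were also detected in every library.

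Promoter sequence is a property that the choice of genes did not use. RefSeq promoters (GRCm38.p6, 250 bases before to 50 after the start site) matched 32 of the 38 genes, with 34 start sites. The letters TTTGAA, a core of the cell cycle homology region, occurred on either strand in 27 of these promoters (79.4%), against 17.9% of all 32851 promoters in the table. CCAAT occurred on either strand in 28 of them (82.4%), against 37.4% of all promoters. Both motifs occurred in 24 (70.6%), against 6.95%; each motif was searched on its own, so matches may overlap. TTTGAA occurred in 47.1% of 85 promoters of other mitotic genes and in 11.8% of 34 promoters of DNA replication genes. CCAAT occurred in 61.2% and 61.8% of the same promoters, so both of these lists also lay above the share over all promoters. A match describes letters and not a bound site.

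The 120 bases before the start site are shown for 6 genes, to set 4 members that follow the common pattern across libraries (Cdk1, Cdc20, Top2a and Ube2c) beside 2 that depart from it (Spc25 and Gas2l3). They are written 5′ to 3′ on the strand of the gene, and capitals mark TTTGAA or CCAAT, as spelled or as the reverse complement.
Cdk1 (chr10:69352913-69353032, minus strand): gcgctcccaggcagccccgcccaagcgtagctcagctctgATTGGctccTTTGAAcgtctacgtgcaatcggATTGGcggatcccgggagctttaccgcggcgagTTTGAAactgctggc
Cdc20 (chr4:118437344-118437463, minus strand): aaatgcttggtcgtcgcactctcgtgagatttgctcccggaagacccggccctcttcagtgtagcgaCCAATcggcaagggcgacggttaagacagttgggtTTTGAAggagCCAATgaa
Top2a (chr11:99024190-99024309, minus strand): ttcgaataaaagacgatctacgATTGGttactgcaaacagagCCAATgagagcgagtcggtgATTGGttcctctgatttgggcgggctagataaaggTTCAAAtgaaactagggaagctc
Ube2c (chr2:164769809-164769928, plus strand): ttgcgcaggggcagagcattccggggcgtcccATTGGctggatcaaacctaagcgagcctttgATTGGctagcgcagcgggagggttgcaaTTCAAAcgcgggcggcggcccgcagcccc
Spc25 (chr2:69206214-69206333, minus strand): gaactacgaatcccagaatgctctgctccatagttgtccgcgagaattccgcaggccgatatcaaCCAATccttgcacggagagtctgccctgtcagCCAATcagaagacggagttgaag
Gas2l3 (chr10:89443968-89444087, minus strand): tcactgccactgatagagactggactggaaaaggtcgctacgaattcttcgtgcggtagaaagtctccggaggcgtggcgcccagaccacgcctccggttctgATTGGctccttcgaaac
In Cdk1, TTTGAA matches begin at bases -71 and -15, counting the base before the start site as -1. Cdc20 has a TTTGAA match at -18, between CCAAT matches at -53 and -8. Spc25 has CCAAT matches at -55 and -23, and its TTTGAA match lies after the start site, at base 25. Gas2l3 has 1 CCAAT match, at -17, and no TTTGAA in the window. Spellings other than TTTGAA were not searched, among them the ttcgaa near the end of its printed stretch. Nuf2, Nusap1 and Birc5 hold neither motif in their windows. Bub1b, Cdca8, Hmmr and Racgap1 also follow the common pattern, and their 120 bases before the start site hold no TTTGAA. As in Spc25, their TTTGAA matches lie after the start site, at bases 41, 14, 9 and 6. The 6 genes shown are examples, and a link between motif and pattern was not tested.

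The design compares the genotypes, and all 38 genes had a higher fitted level in Erbb3d/d, where 48.0% of the 14598 genes tested did. Their median log2 fold change was 0.62, against -0.01 over all genes tested. In edgeR's quasi-likelihood test none fell under an adjusted p of 0.05, nor did any other gene (0% called). At an unadjusted p under 0.05 there were 12 of the 38 higher and 0 lower, against 6.64% and 4.97% of all genes tested, or 11.6% in either direction. The 38 genes were chosen with earlier results of these data known, so these counts are descriptions. With 1 library left out, that count of 12 became 3, 4, 7 and 23 without Erbb3f/f replicates 1 to 4 in turn, and 23, 26, 5 and 3 without Erbb3d/d replicates 1 to 4. The share of all genes at that p in either direction moved too, from 6.97% without Erbb3d/d replicate 4 to 18.9% without Erbb3d/d replicate 2. DESeq2 called 1 member at an adjusted p under 0.05, Gas2l3, against 1.80% of all genes. In simulated counts for this comparison, over 14598 genes, the edgeR test recovered 61% of genes changed 2-fold and 94% of those changed 4-fold. Genes were drawn independently there, and the median member change is below 2-fold, so these rates were not measured for changes like those of the members.

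**Figure D1:**
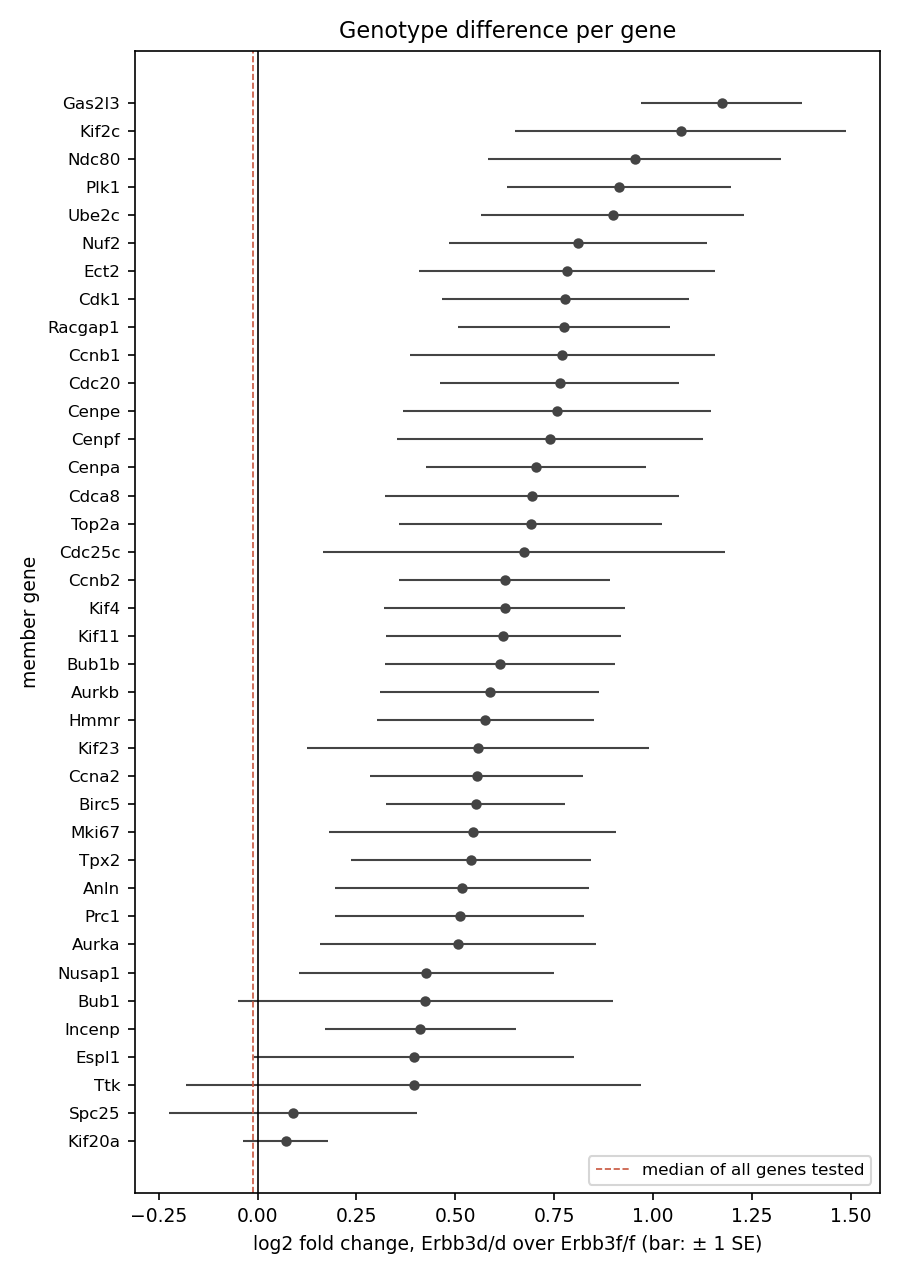
Log2 fold change of each of the 38 genes, Erbb3d/d over Erbb3f/f, with bars of 1 standard error from edgeR's quasi-likelihood fit over 8 libraries. Points run from 0.07 (Kif20a) to 1.17 (Gas2l3).

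The difference lay in Erbb3d/d replicates 3 and 4. In replicates 1 to 4 the mean log2 CPM of the 38 genes was 3.20, 3.67, 3.53 and 4.08 for Erbb3f/f, against 3.74, 3.60, 4.67 and 4.71 for Erbb3d/d. Erbb3d/d replicates 1 and 2 lay inside the range of the Erbb3f/f libraries, and replicates 3 and 4 above it. Group means were 3.62 ± 0.363 and 4.18 ± 0.591 (SD, n = 4 each). Both high libraries stood above every Erbb3f/f library for 35 of the 38 genes, against 15.5% of all genes tested; the exceptions were Cdc25c, Spc25 and Kif20a. Without these 2 libraries, 16 of the 38 genes were higher in Erbb3d/d, where 47.8% of all genes were. The median log2 fold change was then -0.01, as over all genes (-0.01), and 0% of all genes were called in edgeR. That these libraries were high in mitotic genes was known when they were chosen to be left out.

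**Figure D2:**
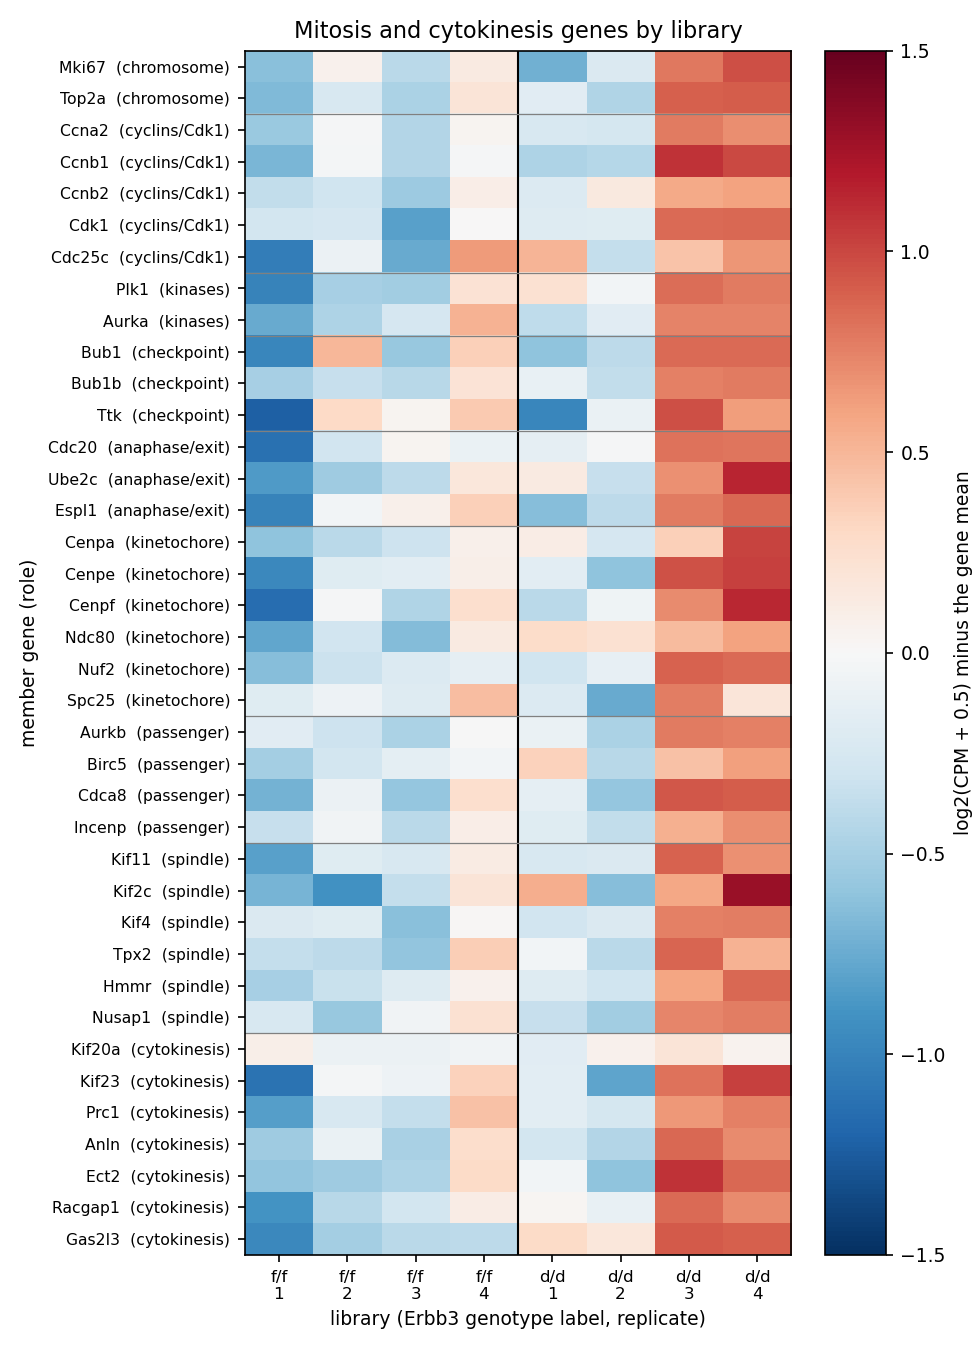
Heat map of log2(CPM + 0.5) minus the mean of each gene, for the 38 genes in rows by role and the 8 libraries in columns. Red (higher) fills the columns of Erbb3d/d replicates 3 and 4 in nearly every row, and Kif20a is nearly flat.

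The Erbb3f/f libraries also differed among themselves in these genes. Replicate 4 was the highest of its genotype for 35 of the 38 genes, and replicate 1 the lowest for 28. Within Erbb3f/f the mean log2 CPM ranged from 3.20 to 4.08, wider than the difference of 0.56 between the genotype means. A member's log2 CPM followed the mean of the other members over the 8 libraries with a median Pearson correlation of 0.92, from 0.37 for Kif20a to 0.99 for Top2a. The correlations are descriptions, and all rest on the same 8 libraries.

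By role, the markers of dividing chromosomes come first, with values given in the order of replicates 1 to 4. Mki67, which coats mitotic chromosomes and is the usual label of cycling cells, was at 123, 198, 144 and 208 CPM for Erbb3f/f and 115, 163, 330 and 371 CPM for Erbb3d/d. Its lowest value of all was in Erbb3d/d replicate 1, and its highest values were in replicates 3 and 4. The log2 fold change was 0.54 (SE 0.36), and edgeR's adjusted p 0.593. Top2a, the topoisomerase that untangles sister chromatids, was at 31.9, 42.7, 36.3 and 58.00 CPM for Erbb3f/f and 44.9, 37.0, 94.3 and 95.3 CPM for Erbb3d/d. It tracked the mean of the other members more closely than any other gene of the set.

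The mitotic cyclins and Cdk1 drive entry into mitosis, and Cdc25c encodes a phosphatase that activates CDK1. Ccnb1, cyclin B1, was at 10.8, 17.3, 12.9 and 17.4 CPM for Erbb3f/f and 12.7, 12.9, 37.9 and 35.4 CPM for Erbb3d/d. Cdk1 itself was at 7.60, 7.75, 5.11 and 9.38 CPM for Erbb3f/f and 8.06, 8.17, 17.2 and 17.4 CPM for Erbb3d/d. In both genes Erbb3d/d replicates 3 and 4 stood near each other and above the other 6 libraries. Log2 fold changes were 0.77 (SE 0.39) for Ccnb1, 0.78 (SE 0.31) for Cdk1, 0.55 for Ccna2 and 0.62 for Ccnb2. Ccna2, cyclin A2, ran from 32.1 to 49.0 CPM over the Erbb3f/f libraries and was at 40.00, 39.4, 81.6 and 77.1 CPM in Erbb3d/d. Cdc25c rests on 7 to 38 reads per library, and its genotypes overlapped.

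Plk1 and Aurka encode the Polo-like and Aurora A kinases, which mature the centrosomes and promote mitotic entry. Plk1 was at 8.28, 11.9, 11.7 and 19.8 CPM for Erbb3f/f and 20.05, 16.6, 30.7 and 29.6 CPM for Erbb3d/d. Erbb3d/d replicate 2 lay below Erbb3f/f replicate 4, and all other pairs of libraries were in the order of the genotypes. Its log2 fold change was 0.91 (SE 0.28), and its adjusted p, 0.305 in edgeR, was the smallest of the set after Gas2l3. Aurka ran from 7.70 to 19.3 CPM over the Erbb3f/f libraries and from 10.1 to 22.7 CPM in Erbb3d/d, a log2 fold change of 0.51 (SE 0.35).

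The 3 spindle checkpoint genes had the lowest median log2 fold change of the 9 roles, 0.42. Bub1b, which encodes the checkpoint protein BUBR1, ran from 10.03 to 16.6 CPM over the Erbb3f/f libraries and was at 13.3, 10.96, 24.6 and 25.00 CPM in Erbb3d/d. Bub1, a kinase at the kinetochore, was at 2.24, 7.12, 3.14 and 6.44 CPM for Erbb3f/f and 3.05, 3.62, 9.22 and 9.21 CPM for Erbb3d/d. Ttk, the checkpoint kinase MPS1, had 6 to 57 reads per library and a log2 fold change of 0.39 (SE 0.57). In all 3 genes Erbb3d/d replicates 1 and 2 lay within the Erbb3f/f range.

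Of the genes that release anaphase, Cdc20 activates the anaphase-promoting complex, Ube2c is its ubiquitin-conjugating enzyme and Espl1 encodes separase, which cuts cohesin. Cdc20 was at 7.31, 13.3, 16.8 and 15.3 CPM for Erbb3f/f and 14.9, 16.2, 29.3 and 28.9 CPM for Erbb3d/d, a log2 fold change of 0.76 (SE 0.30). Ube2c was at 8.18, 10.3, 11.4 and 17.1 CPM for Erbb3f/f and 16.6, 11.8, 24.7 and 33.9 CPM for Erbb3d/d, a log2 fold change of 0.90 (SE 0.33). Neither passed after adjustment, with an adjusted p of 0.380 and 0.353 in edgeR. Espl1 ran from 6.43 to 17.2 CPM over the Erbb3f/f libraries and from 8.35 to 24.7 CPM in Erbb3d/d.

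**Figure D3:**
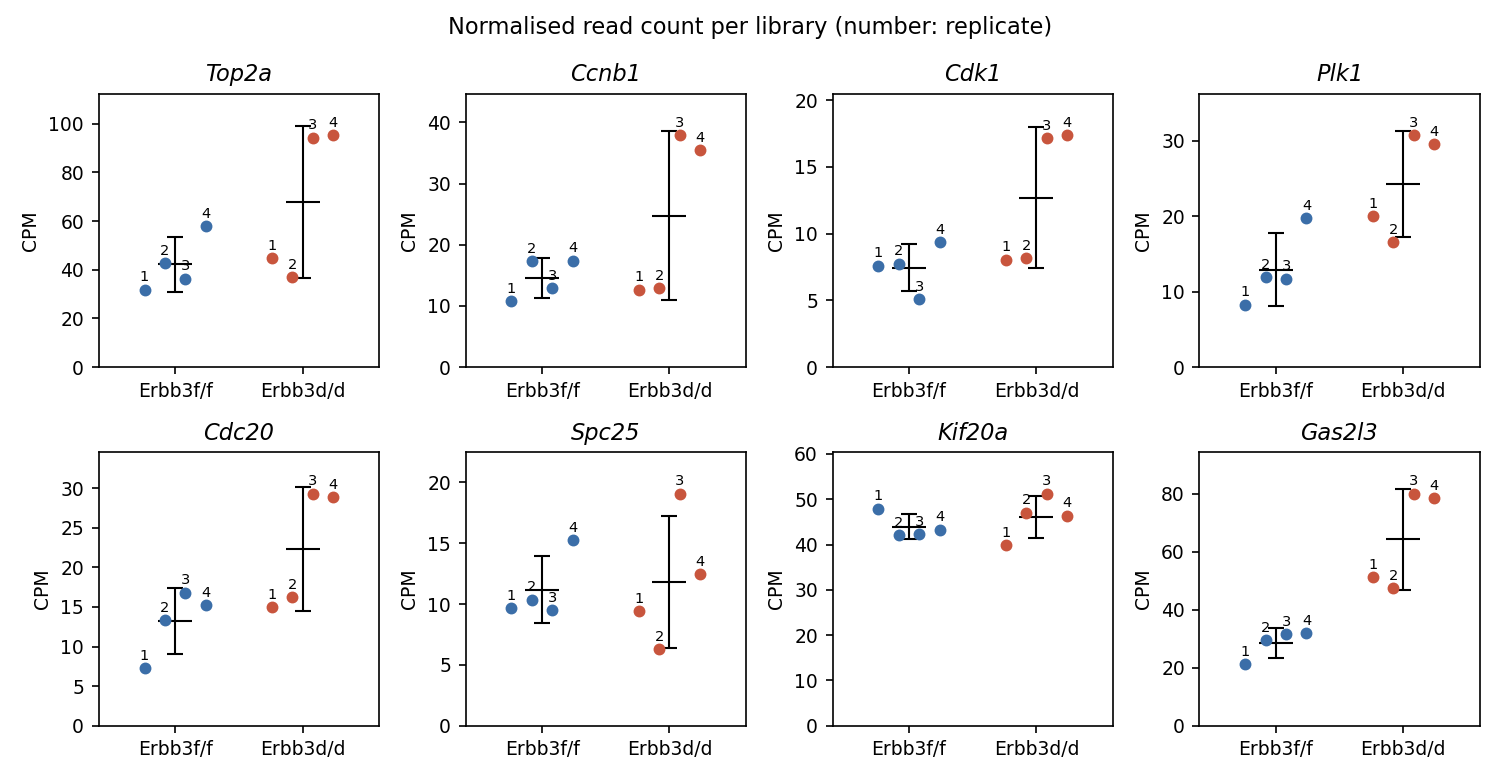
Normalised read count (CPM) of 8 genes in each library, with the replicate number at each point and the mean ± SD of each genotype (n = 4). Kif20a stays between 39.8 and 51.2 CPM, and all Erbb3d/d values of Gas2l3 lie above all its Erbb3f/f values.

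The centromere and kinetochore genes did not share 1 pattern. Cenpa, the histone variant that marks centromeres, ran from 7.60 to 12.4 CPM over the Erbb3f/f libraries and was at 12.8, 9.80, 15.2 and 24.3 CPM in Erbb3d/d. The motor Cenpe and the large kinetochore protein Cenpf had log2 fold changes of 0.76 (SE 0.39) and 0.74 (SE 0.39). Ndc80, Nuf2 and Spc25 encode subunits of the NDC80 complex, which binds microtubules. Ndc80 was at 0.974, 1.57, 1.10 and 2.26 CPM for Erbb3f/f and 2.56, 2.45, 2.99 and 3.33 CPM for Erbb3d/d, from 10 to 38 reads. Ndc80 and Gas2l3 were the 2 members higher in Erbb3d/d without overlap, against 2.56% of all genes tested, and 0 members were lower without overlap, against 2.48%. Nuf2 ran from 3.60 to 5.31 CPM over the Erbb3f/f libraries and was at 4.72, 5.37, 11.3 and 11.1 CPM in Erbb3d/d.

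Spc25 lies on chromosome 2 from 69193895 to 69206194 (minus strand; GRCm38, GENCODE vM21). It was at 9.64, 10.4, 9.51 and 15.3 CPM for Erbb3f/f and 9.43, 6.30, 19.1 and 12.5 CPM for Erbb3d/d. Erbb3d/d replicate 4, the highest library for 20 of the 38 genes, lay below Erbb3f/f replicate 4 here. The log2 fold change was 0.09 (SE 0.31), edgeR's adjusted p was 0.934, and the direction turned to -0.24 without Erbb3d/d replicate 3. Relative to the mean of the other members its log2 CPM was -0.14 ± 0.172 for Erbb3f/f and -0.73 ± 0.325 for Erbb3d/d (SD, n = 4 each), and these relative values did not overlap. Spc25 had the lowest such difference of the 38 genes and was singled out with its values known, so this too is a description.

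The chromosomal passenger complex, which corrects faulty attachments and later marks the division plane, is made of Aurora B, survivin, borealin and INCENP. Aurkb, which encodes Aurora B, ran from 13.1 to 18.3 CPM over the Erbb3f/f libraries and was at 17.1, 13.1, 31.8 and 31.3 CPM in Erbb3d/d. Cdca8, which encodes borealin, ran from 7.11 to 14.2 CPM over the Erbb3f/f libraries and was at 10.8, 7.82, 23.2 and 22.8 CPM in Erbb3d/d. Log2 fold changes over the complex were 0.59 for Aurkb, 0.55 for Birc5 (survivin), 0.69 for Cdca8 and 0.41 for Incenp. None passed after adjustment, the smallest adjusted p being 0.394 for Birc5 in edgeR.

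Spindle motors and microtubule proteins had a median log2 fold change of 0.599 over 6 genes. Kif2c, a kinesin that takes microtubules apart at centromeres, was at 3.12, 2.62, 4.09 and 6.22 CPM for Erbb3f/f and 8.06, 3.27, 8.27 and 13.9 CPM for Erbb3d/d. It was above the Erbb3f/f libraries in Erbb3d/d replicate 1 as well, and its log2 fold change of 1.07 (SE 0.42) was the second largest of the set. Kif11, the motor that pushes spindle poles apart, ran from 14.3 to 27.8 CPM over the Erbb3f/f libraries and was at 21.4, 21.8, 47.4 and 41.2 CPM in Erbb3d/d. The chromosome motor Kif4, the spindle assembly factor Tpx2 and the microtubule binders Hmmr and Nusap1 had log2 fold changes of 0.62, 0.54, 0.58 and 0.43.

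Cytokinesis genes held both ends of the range. Racgap1, Kif23 and Ect2 act together at the spindle midzone to switch on RhoA, Prc1 bundles midzone microtubules, and Anln is a scaffold of the contractile ring. Racgap1 ran from 11.1 to 22.7 CPM over the Erbb3f/f libraries and was at 21.4, 19.5, 38.2 and 34.8 CPM in Erbb3d/d, a log2 fold change of 0.78 (SE 0.27). Log2 fold changes were 0.56 for Kif23, 0.78 for Ect2, 0.51 for Prc1 and 0.52 for Anln. In Kif23, Prc1 and Anln, Erbb3d/d replicates 1 and 2 lay within the Erbb3f/f range.

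Gas2l3 encodes a protein that links actin and microtubules and acts in cytokinesis, and lies on chromosome 10 from 89408823 to 89443967 (minus strand; GRCm38, GENCODE vM21). It was at 21.1, 29.4, 31.6 and 31.9 CPM for Erbb3f/f, from 217 to 402 reads, and 51.1, 47.4, 80.0 and 78.5 CPM for Erbb3d/d, from 406 to 1015 reads. Each Erbb3d/d library lay above each Erbb3f/f library, replicates 1 and 2 included. Means were 28.5 ± 5.03 and 64.2 ± 17.4 CPM (SD, n = 4 each), and the log2 fold change was 1.17 (SE 0.20). Its adjusted p reached 0.133 in edgeR and 7.68e-05 in DESeq2. With each library left out in turn, edgeR's adjusted p ran from 0.0143 to 0.379, the lowest being without Erbb3d/d replicate 2, a fit that called 1.75% of all genes. Without Erbb3d/d replicates 3 and 4 its log2 fold change was 0.79, the largest of the set in that fit, with an adjusted p of 0.629 in edgeR.

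Relative to the mean of the other 37 members, the log2 CPM of Gas2l3 was 1.24 ± 0.225 in Erbb3f/f (SD, n = 4) and 1.99, 2.03, 1.70 and 1.63 in Erbb3d/d replicates 1 to 4. Its excess over the other members was largest in Erbb3d/d replicates 1 and 2. Gas2l3 was singled out with its values known, so this is a description.

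Kif20a, a kinesin that acts at the midzone, was at 47.9, 42.1, 42.3 and 43.3 CPM for Erbb3f/f and 39.8, 47.0, 51.2 and 46.4 CPM for Erbb3d/d. It varied less across libraries than any other member, and its log2 fold change was 0.07 (SE 0.11). Kif20a lies on chromosome 18 from 34624613 to 34633277 (plus strand), and shares 31.8% of its exonic bases with Cdc23 on the other strand. The libraries do not keep strand, so reads from shared stretches cannot be told apart. Cdc23 was at 99.6 ± 8.42 CPM and 99.2 ± 7.14 CPM in the 2 genotypes (SD, n = 4 each), and its part in the count of Kif20a was not tested. In all, 8 of the 38 genes share exonic bases with another gene, among them Ube2c (22.8%, with Tnnc2), Prc1 (21.8%, with Rccd1), Kif4 (15.1%, with Pdzd11) and Ccna2 (10.4%, with Exosc9). Their counts are uncertain for that reason, by an amount that was not tested. Tnnc2 itself was at 0.452 CPM or less in every library. Entries marked ambiguous, which are counted for no gene, were 0.147% to 0.166% per library.

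**Figure D4:**
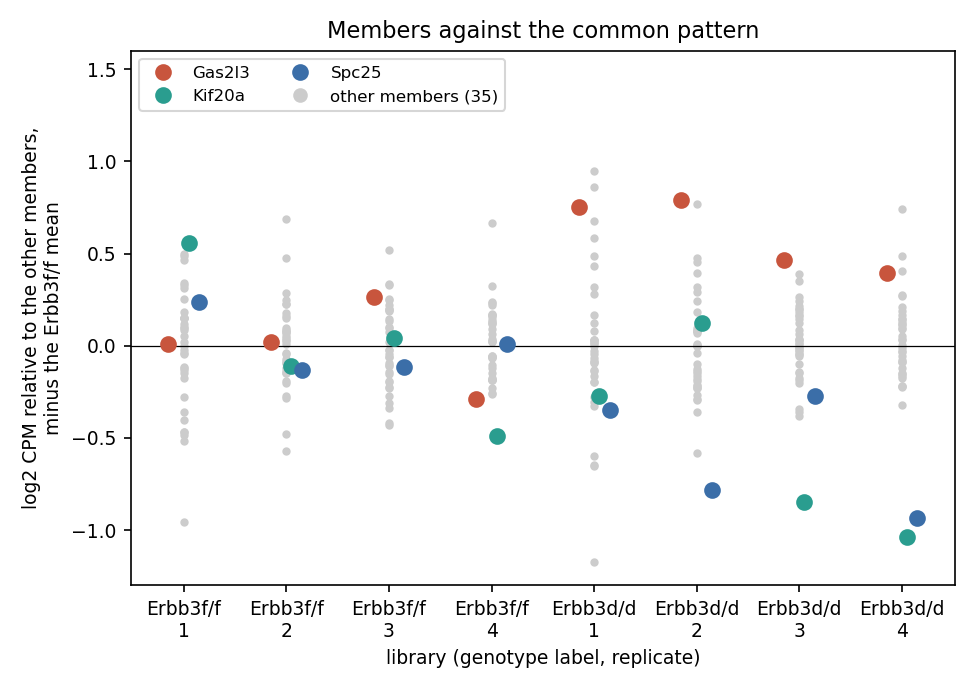
Log2 CPM of each member relative to the mean of the other members, minus its Erbb3f/f mean, in the 8 libraries. Gas2l3 (red) lies above its Erbb3f/f values in all 4 Erbb3d/d libraries, Spc25 (blue) below its own, and Kif20a (green) is lowest in Erbb3d/d replicates 3 and 4.

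Levels were compared between genes per length, as FPKM, which is CPM per kilobase of exon. Mki67 was the highest, at 16.7 ± 4.12 FPKM for Erbb3f/f and 24.3 ± 12.4 FPKM in Erbb3d/d (SD, n = 4 each). Ccna2, Kif20a, Prc1 and Top2a followed, with means over all libraries of 13.8, 11.3, 11.2 and 10.5 FPKM. Of these, Ccna2, Kif20a and Prc1 share exonic bases with another gene, so their places are uncertain. The lowest were Cdc25c, Ndc80 and Ttk, at 1.10, 0.979 and 0.806 FPKM, and the median member was at 5.196 FPKM. Of the 37 pairs of neighbours in this order, 2 kept their order in all 8 libraries, Mki67 above Ccna2 and Kif11 above Ect2. Within the NDC80 complex the level was 7.25 FPKM for Spc25, 2.30 FPKM for Nuf2 and 0.979 FPKM for Ndc80.

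Another 90 genes of mitosis were read out beside the set. Of these, 75 were higher and 15 lower in Erbb3d/d, with a median log2 fold change of 0.39; none passed after adjustment in edgeR, and at an unadjusted p under 0.05 there were 15 higher and 1 lower, 17.8% against 11.6% of all genes tested. The parts of this list differed. Its 22 spindle and cytokinesis genes had a median of 0.627, near the 0.623 of the 38 genes, and 95.5% were higher, against 48.0% of all genes tested. Medians were 0.438 for 13 mitotic regulators, 0.353 for 11 cohesin and condensin genes, and 0.269 for 28 kinetochore genes. For 16 genes of the programme's transcription the median was 0.217. Activators of the programme were among the higher of the 90 genes. Mybl2, which encodes B-MYB, was at 4.604 ± 0.584 CPM for Erbb3f/f and 10.2 ± 4.62 CPM for Erbb3d/d, and Foxm1 at 34.3 ± 6.21 and 53.1 ± 15.05 CPM (SD, n = 4 each). Their log2 fold changes were 1.15 (SE 0.35) and 0.63 (SE 0.20), with adjusted p of 0.294 and 0.311 in edgeR. Lin9 and Lin54, subunits of the MuvB core, had log2 fold changes of 0.34 and 0.23.

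The checkpoint gene Mad2l1 was at 14.7 ± 2.38 and 25.9 ± 8.61 CPM in the 2 genotypes (SD, n = 4 each), higher in Erbb3d/d. Against the common direction stood Wee1, which encodes a kinase that holds CDK1 inactive. It ran from 73.4 to 119 CPM over the Erbb3f/f libraries and from 52.2 to 60.3 CPM in Erbb3d/d, without overlap. The log2 fold change of Wee1 was -0.71 (SE 0.14), and the adjusted p was 0.163 by edgeR and 0.00294 by DESeq2. Rbl2, a pocket protein of the DREAM complex, and the checkpoint gene Mad1l1 were at -0.15 and -0.33.

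DNA replication genes, which act earlier in the cycle, were the nearest comparison. Of 34 tested, 25 were higher and 9 lower in Erbb3d/d, with a median log2 fold change of 0.16; none passed after adjustment in edgeR, and 3 had an unadjusted p under 0.05, 8.82% against 11.6% of all genes tested. Cdc6 and Mcm10, which license and start origins, and the nuclease Fen1 had the smallest p among the higher ones, with log2 fold changes of 1.14, 0.85 and 0.41. Among the lower ones these were Pold1, Mcm7 and Prim1, with -0.20, -0.13 and -0.22. The mean log2 CPM of replication genes was 3.81, 4.06, 3.60 and 3.86 for Erbb3f/f and 3.75, 3.63, 4.37 and 4.19 for Erbb3d/d. Erbb3d/d replicates 3 and 4 thus stood above every Erbb3f/f library in this list too. The other 90 mitotic genes did the same, at 4.34 and 4.27 in those replicates against at most 3.87 in Erbb3f/f. Per library, the mean log2 CPM of the 38 genes minus that of replication genes was -0.60, -0.39, -0.08 and 0.22 for Erbb3f/f and -0.01, -0.03, 0.30 and 0.52 for Erbb3d/d. The genotypes overlapped in this difference, which was not tested.

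Markers of other cells moved in part with the mitotic genes. The mean log2 CPM of 18 epithelial markers ran from 5.27 to 5.94 in Erbb3f/f and was 5.87, 5.91, 6.48 and 6.55 in Erbb3d/d replicates 1 to 4. Of these markers 16 of 18 were higher in Erbb3d/d, where 48.0% of all genes tested were, and none was at 0 in any library. Epcam was at 77.6 ± 20.3 and 153 ± 53.9 CPM (SD, n = 4 each). The 2 lower ones were Cldn3, at 262 ± 42.8 and 225 ± 40.1 CPM, and Foxa2, at 8.08 ± 5.61 and 5.68 ± 2.57 CPM (SD, n = 4 each). The 11 smooth muscle markers, 10 of them higher in Erbb3d/d, followed another order, 8.39, 7.44, 7.24 and 7.84 in Erbb3d/d against 6.25 to 7.31 in Erbb3f/f. Endothelial markers ran from 3.86 to 4.92 in Erbb3f/f and from 4.22 to 5.04 in Erbb3d/d, and immune markers from 4.95 to 5.53 and from 4.76 to 5.37. The mean of the stromal markers was lowest in Erbb3d/d replicates 3 and 4, at 9.71 and 9.51, against 9.81 to 10.12 in the other 6 libraries. These markers were not uniform: 10 of 14 were lower in Erbb3d/d and 4 higher, Dcn and Lum among the higher. Median log2 fold changes were 0.615 for epithelial and 1.06 for smooth muscle markers, against 0.623 for the 38 genes. They were 0.18, 0.03 and -0.24 for endothelial, immune and stromal markers. At an unadjusted p under 0.05 in edgeR, 12 of 18 epithelial and 10 of 11 smooth muscle markers were higher, against 6.64% of all genes tested. The part of these cells in the mitotic values was not tested.

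**Figure D5:**
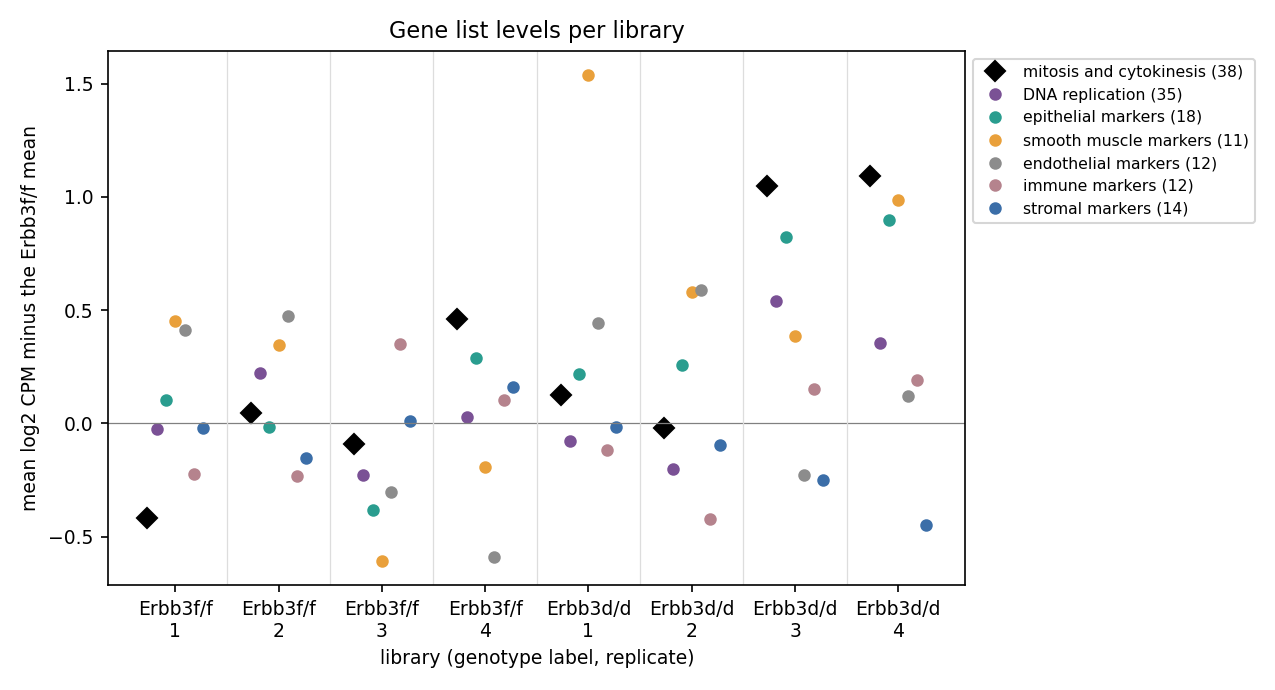
Mean log2 CPM of each gene list in each library, minus the mean of the 4 Erbb3f/f libraries. The mitotic genes and epithelial markers are highest in Erbb3d/d replicates 3 and 4, smooth muscle markers in Erbb3d/d replicate 1, and stromal markers are lowest in Erbb3d/d replicate 4.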

How the data were processed

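Polyadenylated RNA of 8 libraries was sequenced as non-directional pairs of 150 bp, per the labels' protocols. The authors deposited raw counts, whole reads per gene symbol, in 1 table per library. HISAT2, SAMtools, HTSeq, StringTie, mm10 and GRCm38 are named in the submitters' processing notes, without versions or roles; counting options are not given in the sources used here. The 5 lines that name no gene were left out; reads in genes were 27.0% to 29.1% of entries.

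Genotype and replicate came from the titles. With edgeR 4.0.16 in R 4.3.3, genes were kept by filterByExpr (14598 of 23420) and scaled by TMM, and genotype was tested, unpaired, by the quasi-likelihood test with Benjamini-Hochberg adjustment over all genes tested at 0.05. The SE is the log2 fold change over the root of F. Log2 CPM used a prior count of 2. Alternatives were DESeq2 1.42.0, other scalings, no filter, a replicate block and left-out libraries. The test was checked on simulated counts with 200 changed genes (12 false calls). Exons and coordinates came from GENCODE vM21 (GRCm38), with FPKM lengths from protein-coding transcripts, and promoters from RefSeq by symbol. In the other lists, 7 genes were matched by an older symbol. The members and lists were chosen with earlier results of these data known. Beyond members, the genes named are regulators, marker examples, exon partners and, per list, the 3 with the smallest p in each direction at a mean of at least 1 CPM.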

Additional observations from a re-analysis of the deposited data

Results flagged for a closer look

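In 92 groups of 4 libraries, 1 library far from the others was found 2 times, where 4.6 would be found by chance at 1 in 20. Both were in Erbb3f/f replicate 4. Ect2 stood at 21.6 CPM there, and the nearest Erbb3f/f library at 12.6 CPM. Spc25 stood at 15.3 CPM there, and the nearest at 10.4 CPM.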

How the results depend on the processing

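Upper quartile scaling, no scaling and no filter on low counts kept the direction of all 38 members and called none. In edgeR fits that each left out 1 library, the number of members called was 0 to 1, the number higher 37 to 38, the number higher with an unadjusted p under 0.05 3 to 26, the median log2 fold change 0.44 to 0.796, and the difference in mean log2 CPM 0.39 to 0.76. The median was 0.24 to 0.52 for other mitotic genes and -0.0018 to 0.28 for replication genes. Spc25 ran from -0.24 (without Erbb3d/d replicate 3) to 0.297; the cause was not tested.

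DESeq2 called 1 member and gave 22 members an unadjusted p under 0.05, as it did 12.9% of all genes. With a replicate block, edgeR called 1 member, Gas2l3 (adjusted p = 0.0328, 0.356% of all genes called), and gave 21 members an unadjusted p under 0.05, as it did 14.8% of all genes (11.6% without the block). Deviations of same-numbered libraries correlated over genes at 0.221, 0.159, 0.0959 and 0.145. Not every pair was over 0.1, so the main test was kept unpaired. These values do not settle whether same-numbered libraries share more than a number. Erbb3f/f replicates 1, 2 and 3 and Erbb3d/d replicates 1 and 4 correlated best with their own number, and Erbb3f/f replicate 4 and Erbb3d/d replicates 2 and 3 did not.

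Without Erbb3d/d replicates 3 and 4, edgeR gave 16 members higher, where 47.8% of all genes were. It gave 1 member an unadjusted p under 0.05, as it did 4.67% of all genes in either direction. The median was -0.0126 for members, -0.0176 for other mitotic genes and -0.17 for replication genes, and the difference in mean log2 CPM 0.0551. Log2 fold changes below 0 were then Mki67 -0.27, Top2a -0.0374, Ccna2 -0.0300, Ccnb1 -0.18, Aurka -0.12, Bub1 -0.50, Ttk -0.62, Espl1 -0.46, Cenpe -0.10, Spc25 -0.50, Aurkb -0.0428, Cdca8 -0.10, Incenp -0.11, Kif4 -0.0097, Tpx2 -0.0086, Hmmr -0.0177, Nusap1 -0.31, Kif20a -0.0148, Kif23 -0.32, Prc1 -0.0258, Anln -0.18 and Ect2 -0.0103. The fit holds fewer libraries; the cause was not tested. Cdc25c, Ndc80 and Ttk, with few reads, are the least precise.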

Other observations

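Ccna2 shares exonic bases with Exosc9, a subunit of the RNA exosome on the other strand, and the libraries do not keep strand. Exosc9 was at 22.4, 24.0, 22.2 and 25.9 CPM for Erbb3f/f and 22.01, 22.4, 34.8 and 39.4 CPM for Erbb3d/d in replicates 1 to 4, so it was highest in the same 2 libraries as Ccna2. Rccd1, which shares exonic bases with Prc1, was at 28.4, 32.6, 25.6 and 21.3 CPM for Erbb3f/f and 25.1, 27.4, 18.7 and 21.7 CPM for Erbb3d/d, and was not high in those libraries. Both genes were picked out after their values were seen.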
